A study of Mus musculus with 4 samples.

Results

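The genes described here are the simple epithelial keratins Krt8, Krt18, Krt19, Krt7 and Krt20, which are 5 of the 19083 genes measured. They were chosen by symbol, as the array features whose single annotated gene is one of these 5, and the set was put together with the shFmr1 ratios of these arrays already known. The ratios of the 5 genes are therefore a description and carry no test. The tested RNA came from mouse embryonic stem (ES) cells in which a hairpin RNA directed at exon 1 knocks down Fmr1 (shFmr1 cells), the gene of the RNA-binding protein FMRP. The comparison RNA came from ES cells with a random hairpin (shCT). Both populations had received a lentivirus that also encodes GFP, had been sorted, and were kept as mixed, non-clonal cells, so neither stands for 1 clone. Each of 4 Agilent 2-colour arrays held 0.2 µg of shFmr1 RNA and 0.2 µg of shCT RNA at an integrity number of 9. In replicates 1 and 3 the Cy5 dye was on the shFmr1 RNA, and in replicates 2 and 4 the Cy3 dye was. The labels do not say whether the replicates were separate cultures, so the SDs and p-values cover the differences among these RNA samples and may hold technical variation alone.

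All values below are log2 ratios, shFmr1 over shCT, a negative value meaning less transcript in shFmr1 cells. The base and the direction of the ratios are not stated with the data. The direction is the likely one, because Fmr1 was negative on every array although the dyes alternate, with ratios of -0.86, -1.65, -1.34 and -1.61 in the order of replicates 1 to 4. No intensities were analysed here, so the level of each keratin in ES cells is not known, and a ratio near 0 can come from a gene that was not detected. A ratio cannot tell fewer cells that express a keratin from less transcript per cell.

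Keratins are the intermediate filament proteins of epithelia. A filament needs a type II and a type I keratin in pairs, and a keratin without a partner is usually degraded. Krt8 (type II) with Krt18 (type I) forms the first keratin filaments of the mouse embryo, in trophectoderm, and later those of simple epithelia such as liver and gut. Undifferentiated ES cells are usually low in these filaments, which appear as cells take on an extraembryonic or other epithelial identity. Krt7 is the type II keratin of many ducts and of trophoblast, Krt19 a type I keratin that lacks most of the tail domain, and Krt20 a type I keratin of intestinal epithelium and urothelium.

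Krt8 and Krt18 lie next to each other on chromosome 15, although Krt18 is the one type I keratin outside the type I cluster of chromosome 11. Their upstream sequences are shown because both genes had negative ratios on every array, and that of Krt7, from the same chromosome, because its ratios did not share a sign. Each is the 250 bases before the RefSeq start in GRCm38.p6, printed 5′ to 3′ on the strand of the gene. They lie at chr15:102004343-102004592 on the minus strand for Krt8, at chr15:102027966-102028215 on the plus strand for Krt18 and at chr15:101412153-101412402 on the plus strand for Krt7. Capitals mark matches, on either strand, to CACCTG (an E-box) or GGGCGG (a GC box).
Krt8: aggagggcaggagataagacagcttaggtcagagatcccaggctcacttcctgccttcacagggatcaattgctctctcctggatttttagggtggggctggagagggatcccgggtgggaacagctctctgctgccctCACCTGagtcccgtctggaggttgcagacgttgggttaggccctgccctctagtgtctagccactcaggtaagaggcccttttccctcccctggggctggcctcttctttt
Krt18: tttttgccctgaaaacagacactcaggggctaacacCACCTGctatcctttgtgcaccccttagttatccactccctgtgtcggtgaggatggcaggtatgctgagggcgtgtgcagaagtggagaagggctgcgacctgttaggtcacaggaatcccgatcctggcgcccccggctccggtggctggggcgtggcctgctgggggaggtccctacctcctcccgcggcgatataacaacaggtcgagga
Krt7: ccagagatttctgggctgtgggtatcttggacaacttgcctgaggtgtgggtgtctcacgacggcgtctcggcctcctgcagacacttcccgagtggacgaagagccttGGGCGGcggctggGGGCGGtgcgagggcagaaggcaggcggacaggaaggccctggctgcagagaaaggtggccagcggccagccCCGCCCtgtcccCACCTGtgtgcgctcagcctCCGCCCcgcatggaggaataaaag
The E-box letters CACCTG were found in the windows of Krt8, Krt18 and Krt7, with their first base 111, 214 and 44 bases before the start, and not in that of Krt20. Of all 32851 such windows in the RefSeq table, 17.2% hold them. The GC box GGGCGG occurred 4 times in the window of Krt7 and in none of the other 3, against 32.7% of all windows. The AP-1 letters TGANTCA had no match in the 4 windows (6.75% of all). TATAAA, the core of a TATA box, was found 29 bases before the start of Krt20, and in 12.4% of all windows. In Krt8 the run TATAAA begins at the last base before the annotated start and so lies outside the window, as an extension of the search past the start, chosen after seeing the data, showed. The matches found in these windows do not overlap one another. Krt19 was not matched in the table. These are matches of letters only.

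The pair that forms the filaments of simple epithelia had negative ratios on all arrays. Krt8 read -0.45, -1.01, -1.26 and -1.91 in replicates 1 to 4, a mean of -1.16 ± 0.61 (SD, n = 4). Replicate 4 was the lowest and replicate 1 the highest, and none reached 0. As a log2 ratio the mean leaves 44.9% of the shCT level, and it was the 6th lowest mean of 19083 genes. Krt8 was read by 2 features, both annotated to the same transcript. The first of these averaged -1.25 ± 0.75 and read -0.35, -1.25, -1.23 and -2.18. The second averaged -1.06 ± 0.49 and read -0.55, -0.77, -1.28 and -1.64, so both were negative on every array and put replicate 4 lowest.

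Krt18, the partner of Krt8, read -0.37, -0.32, -1.17 and -1.42, a mean of -0.82 ± 0.56 (SD, n = 4). Its arrays formed a weak and a strong pair, with replicates 1 and 2 near each other and replicates 3 and 4 well below them. The mean leaves 56.7% of the shCT level and ranked 32nd from the lowest of all genes. On the same arrays Krt8 minus Krt18 was -0.08, -0.69, -0.09 and -0.49, with a mean of -0.34 ± 0.30. The ratio of Krt8 was thus below that of its partner on each array, by little on replicates 1 and 3. Each of these genes is measured against its own shCT level, so the difference says nothing about the amounts of the 2 proteins.

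Krt19, which can also pair with Krt8, read -0.64, -1.27, -0.85 and -1.63, a mean of -1.10 ± 0.44 (SD, n = 4). Its SD was the smallest relative to the mean among the 3 keratins with negative ratios throughout. The mean leaves 46.8% of the shCT level and was the 8th lowest of all genes. Krt19 did not follow the pairing of arrays seen for Krt18, since replicate 2 was its second lowest. Krt8 and Krt19 differed by 0.19, 0.26, -0.41 and -0.28 (Krt8 minus Krt19), which averaged -0.06 ± 0.33, so neither was lower than the other beyond the spread between arrays.

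**Figure D1:**
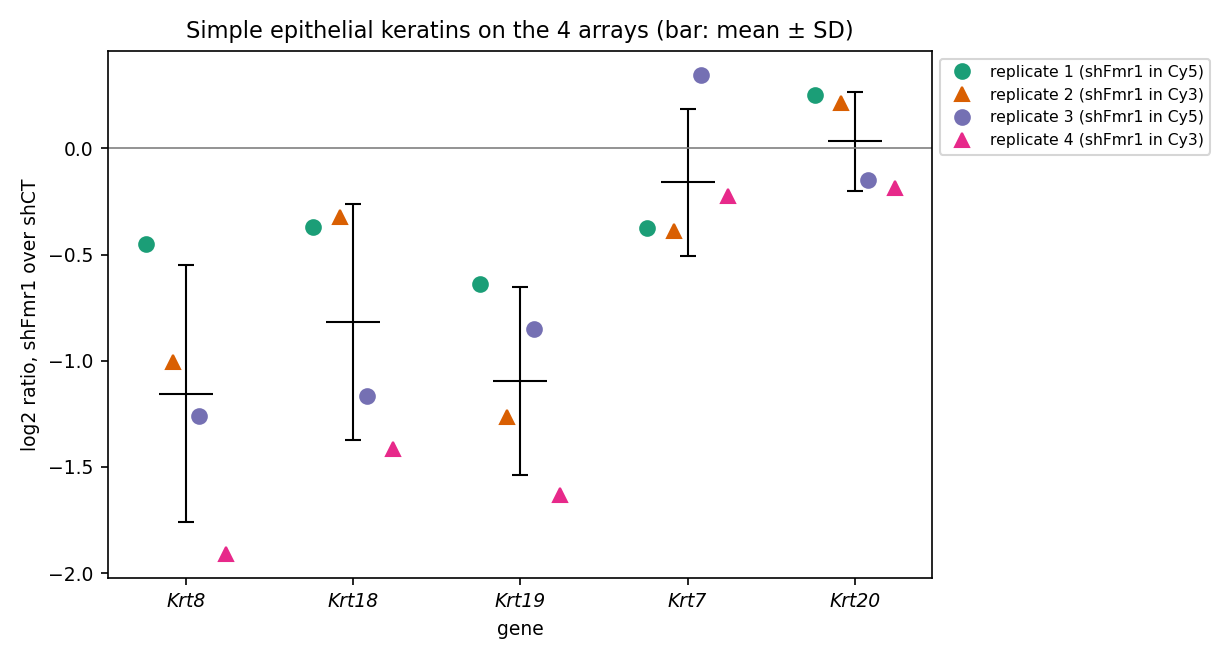
Log2 ratios of shFmr1 over shCT (vertical axis) of the 5 keratins on each array, circles for shFmr1 in Cy5 and triangles for shFmr1 in Cy3, with the mean and SD over 4 arrays as bars. Krt8, Krt18 and Krt19 lie below 0 on every array and lowest on replicate 4, while Krt7 and Krt20 scatter about 0.

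The place of these 3 genes among all genes varied with the array. On replicate 4 Krt8, Krt18 and Krt19 stood at or below the lowest 0.0576%, 0.136% and 0.0943% of genes. On replicate 3 these shares were 0.655%, 0.723% and 1.36%. On replicate 2 Krt8 and Krt19 were again near the bottom, at 0.162% and 0.0786%, while Krt18 was at 5.89%. On replicate 1 all 3 were weaker, at 4.49% for Krt8, 7.17% for Krt18 and 1.70% for Krt19. All 3 keratins were thus within the lowest 7.17% of genes on each array, and nearest the bottom on replicate 4 except for Krt19, which ranked slightly lower on replicate 2.

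The other 2 keratins gave ratios of both signs. Krt7, the second type II keratin of the set, read -0.37, -0.39, 0.35 and -0.23, a mean of -0.16 ± 0.35 (SD, n = 4). Replicate 3 was positive for both of its features, at 0.32 and 0.37, and the features were negative on the other arrays. Without replicate 3 the mean was -0.33. On replicate 3, where Krt7 was positive, Krt8 read -1.26, and Krt8 minus Krt7 was -0.08, -0.62, -1.60 and -1.68 on replicates 1 to 4. Krt20 read 0.25, 0.21, -0.15 and -0.18, a mean of 0.03 ± 0.23 (SD, n = 4), with replicates 1 and 2 above 0 and replicates 3 and 4 below it. Its mean turned to -0.04 without replicate 1 and to -0.03 without replicate 2. The means of both genes were smaller than their SDs, and whether either was detected in these cells is not known here.

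In the fit over all genes, 0 of the 5 keratins passed a limma adjusted p of 0.05, where 0% of all genes did (3.77% had an unadjusted p under 0.05). Krt8, Krt18 and Krt19, 3 of the 5, were negative on all arrays, against 5.88% of all genes. Nothing is read from these counts, since the ratios chose the genes.

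The dye orientation was not used in choosing the keratins and could be tested. Krt19 averaged -0.74 with shFmr1 in Cy5 and -1.45 with shFmr1 in Cy3. Krt8 averaged -0.85 in the Cy5 orientation and -1.46 in the Cy3 orientation, and Krt18 -0.77 in the Cy5 and -0.87 in the Cy3 orientation. The negative ratios were thus present in both orientations. The dye coefficient, the mean with shFmr1 in Cy5 minus the mean over both orientations, was 0.35 for Krt19 (limma adjusted p = 0.730), 0.30 for Krt8 (0.755) and 0.05 for Krt18 (0.959). It was 0.15 for Krt7 (0.804) and 0.02 for Krt20 (0.974), so 0 of the 5 passed, as did 0% of all genes. Krt19 alone of the 5 had an unadjusted p under 0.05 (0.0141), where 6.49% of all genes did. Both arrays of the Cy3 orientation were lower for Krt19 than both of the Cy5 orientation, while for Krt8 and Krt18 the orientations overlapped.

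Across the keratin family, no other gene had a mean as low as these 3. Of 40 keratins measured, Krt8, Krt19 and Krt18 had the 3 lowest means, Krt7 stood 9th and Krt20 25th. Nothing is read from this order, since the set was put together with these ratios known. The 35 other keratins, which serve mostly in epidermis, other stratified epithelia and hair, had a median of 0.03, with 14 negative and 21 positive, beside a median of 0.00 over all genes (9642 of 19083 negative). None of the 35 passed limma's adjusted p of 0.05 (0% of all genes did). An unadjusted p under 0.05 was found for 2 of the 35, beside 3.77% of all genes. The means lay within 0.3 of 0 for 31 of the 35. The lowest were Krt88 (-0.68 ± 1.18), Krt17 (-0.29 ± 0.40), a keratin of basal and wounded epithelium, and Krt87 (-0.23 ± 0.39). The mean of Krt88 rests on replicate 1, at -2.42, while its other arrays read between -0.35 and 0.13. The highest were Krt86 (0.65 ± 1.41), Krt82 (0.39 ± 0.86), both hair keratins, and Krt71 (0.35 ± 0.43), a keratin of the hair follicle's inner root sheath. The means of Krt86 and Krt82 each rest on 1 array as well, and turned to -0.05 without replicate 4 and to -0.03 without replicate 2. Krt71 averaged 0.17 and Krt87 -0.07 without replicate 4. Krt13, Krt6a and Krt76, named after their values were seen, were the 3 other keratins that were negative on all arrays, at -0.16 ± 0.02, -0.20 ± 0.05 and -0.21 ± 0.17.

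**Figure D2:**
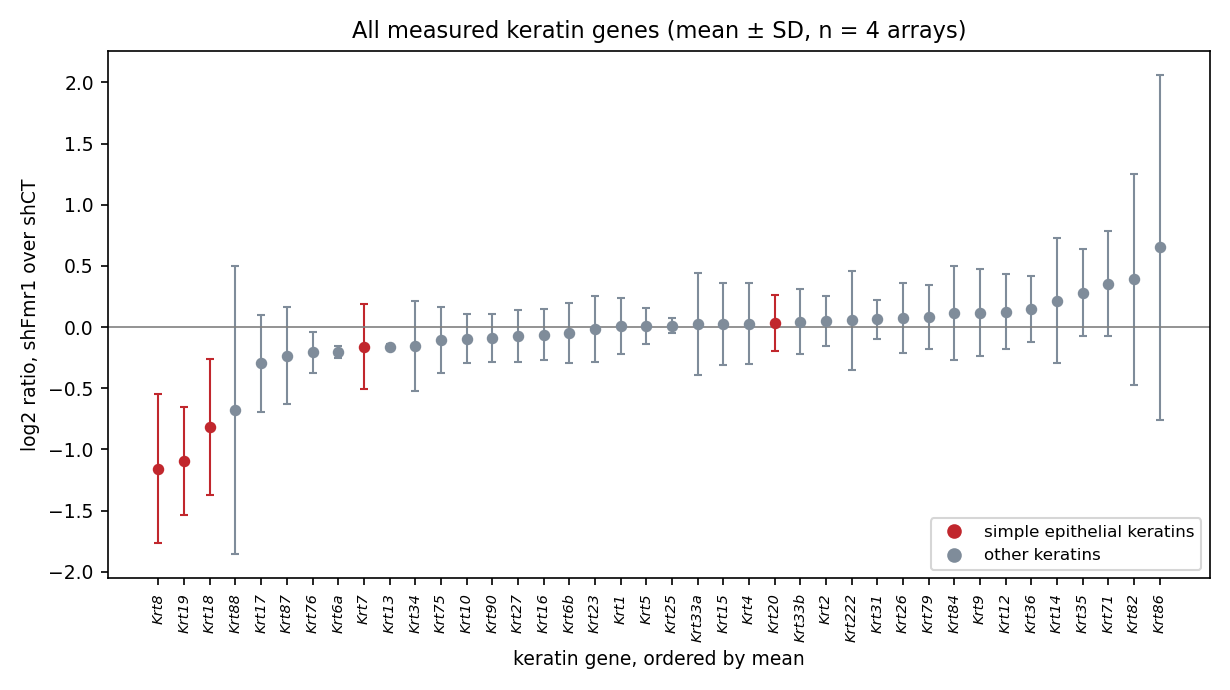
Mean log2 ratio of shFmr1 over shCT with SD over 4 arrays (vertical axis) for the 40 keratin genes measured, ordered by mean along the horizontal axis. Krt8, Krt19 and Krt18 stand at the low end, Krt7 and Krt20 lie among the other keratins, and the widest error bars belong to Krt88 and Krt86. The simple epithelial keratins were chosen with these ratios known.

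The nearest chromosomal neighbours of the 3 genes had means close to 0. Around Krt8 and Krt18 the nearest measured protein-coding genes were Krt79 (0.08 ± 0.26) on the side of Krt8 and Eif4b (-0.03 ± 0.10), a translation initiation factor, on the side of Krt18. The 16 other keratins of the chromosome 15 cluster had a median of 0.01. Around Krt19, Krt15 read 0.03 ± 0.34 and Krt9 0.12 ± 0.36, and the 19 other keratins of the chromosome 11 cluster had a median of 0.03. Krt15 and Krt9 belong to stratified epithelia, of hair follicle and of palm and sole. None of these 4 neighbours passed the adjusted threshold, where 0% of all genes did, so this says nothing about them. They were looked up after the keratin values were seen.

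Other intermediate filament genes had a median near that of all genes. The 16 genes measured had a median of 0.03, with 7 negative. None passed limma's adjusted p of 0.05 (0% of all genes did) and 2 had an unadjusted p under 0.05 (3.77%). The lowest was Nes, the filament of neural progenitors (-0.46 ± 0.49), followed by Lmna, the gene of the A-type nuclear lamins (-0.18 ± 0.19), and Prph, a filament of peripheral neurons (-0.14 ± 0.25). Nes read -0.01, -0.09, -1.01 and -0.72, so that replicates 3 and 4 were the low arrays, as for Krt18. The highest were Bfsp1, a lens filament gene (0.32 ± 0.44), Synm (0.31 ± 0.57) and Ina (0.22 ± 0.30), of muscle and of neurons. Each of them had ratios of both signs. Bfsp1 and Ina averaged 0.15 and 0.09 without replicate 3, and Synm 0.06 without replicate 4.

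Genes of the structures that keratin filaments attach to had medians near that of all genes. Desmosomes are the junctions that anchor keratins, and plakins link filaments to them. The 18 genes of this list had a median of -0.03, with 10 negative. None passed the threshold (0% of all genes did) and 2 had an unadjusted p under 0.05 (3.77%). Pkp2, a plakophilin of the desmosomal plaque, read -0.57, -0.28, -0.39 and -0.23, a mean of -0.37 ± 0.15 (SD, n = 4). Perp, a desmosomal membrane protein, averaged -0.34 ± 0.18, and Evpl, the plakin envoplakin, -0.17 ± 0.18. These 3 genes were negative on every array, as were 16.7% of the list and 5.88% of all genes. Nothing is read from this share, since the list was chosen with earlier results of these data known. Pkp1 (0.21 ± 0.26), Eppk1 (0.18 ± 0.33) and Ppl (0.04 ± 0.05) were at the other end, with ratios of both signs.

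Epithelial junction and polarity genes had a median of -0.03 over 23 genes, with 14 negative. None passed the threshold (0% of all genes did) and 2 had an unadjusted p under 0.05 (3.77%). Cldn6, a claudin of early embryonic epithelium, averaged -0.46 ± 0.37, Cldn7 -0.32 ± 0.44, and Esrp1, an epithelial splicing regulator, -0.22 ± 0.10. Unlike Krt8, Krt18 and Krt19, which were lowest on replicate 4, Cldn6 and Cldn7 had their lowest value on replicate 1, at -0.86 and -0.82. Cldn4, another claudin, was positive on all arrays at 0.22 ± 0.15. Cldn3 and Marveld3, both of tight junctions, had ratios of both signs. The 12 transcription factors of epithelial identity had a median of -0.06, with 8 negative, 0 past the threshold and 0 with an unadjusted p under 0.05. Among them Elf3 averaged -0.26 ± 0.61, Klf5 -0.15 ± 0.13, Ovol2 -0.11 ± 0.43, Grhl2 0.16 ± 0.43 and Grhl1 0.08 ± 0.25. Tfap2c averaged 0.41 ± 1.19 and rests on replicate 3, which read 2.16, and its mean was -0.17 without it. The means of Elf3 and Grhl2 also changed sign without replicate 4 (0.01 and -0.05), and that of Ovol2 without replicate 3 (0.05).

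Markers of cell types that carry simple keratins, or that ES cultures can hold, were set beside these ratios. The 14 trophectoderm genes had a median of -0.01, with 8 negative. None passed the test (0% of all genes did) or had an unadjusted p under 0.05 (3.77%). Their medians on replicates 1 to 4 were 0.03, -0.02, -0.02 and -0.10. Hand1, a factor of trophoblast, was negative on every array at -0.18 ± 0.05. Tpbpa, a spongiotrophoblast marker, averaged -0.28 ± 1.07, and Plac1, a placental gene, 0.53 ± 0.81. Each rests on 1 array, since Tpbpa averaged 0.26 without replicate 1 and Plac1 0.13 without replicate 4.

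The 26 genes of primitive and visceral endoderm, extraembryonic epithelia that also express Krt8, Krt18 and Krt19, had a median of -0.23 and 20 negative means. None passed the adjusted threshold and 11 had an unadjusted limma p under 0.05, where 3.77% of all genes did. Their medians on replicates 1 to 4 were -0.30, -0.01, -0.23 and -0.11, so the list was lowest on replicate 1, where Krt8 and Krt19 had their weakest ratios. Of these genes 8 of 26 were negative on every array, or 30.8%, beside 5.88% of all genes. The list was chosen with earlier results of these data known, so nothing is read from these counts. Thbd (0.26 ± 0.43), Apoa1 (0.08 ± 0.14) and Ttr (0.08 ± 0.16) had the highest means, each with ratios of both signs. Thbd averaged 0.04 without replicate 2. The lowest means were those of Srgn, the proteoglycan serglycin (-1.60 ± 1.60), Rhox5, a homeobox gene (-1.44 ± 0.82), and Cubn, an endocytic receptor (-1.01 ± 0.96). All 3 were lowest on replicate 1, and without it they averaged -0.99, -1.04 and -0.56. All 3 were also lower on both arrays with shFmr1 in Cy5 than on both with shFmr1 in Cy3. On replicates 1 to 4 Srgn read -3.41, -0.53, -2.44 and -0.02, and Cubn -2.37, -0.39, -1.03 and -0.26. The 18 fibroblast genes had a median of 0.15, with 4 negative, 0 past the threshold and 2 with an unadjusted p under 0.05, and medians of 0.26, 0.28, -0.02 and -0.22. Krt8, Krt18 and Krt20 split the arrays in the same way, with replicates 3 and 4 below replicates 1 and 2. Krt19 and Krt7 did not. Krt19 read -1.27 on replicate 2 and -0.85 on replicate 3, and Krt7 was highest on replicate 3, at 0.35. The 17 genes of ES cell identity had a median of 0.02, with 8 negative, 0 past the threshold and 2 with an unadjusted p under 0.05. The pluripotency factors Pou5f1 and Nanog averaged -0.10 ± 0.16 and 0.33 ± 0.52, and Nanog averaged 0.12 without replicate 3. Klf2 had the lowest mean of the list and was negative on all arrays, at -0.14 ± 0.10. Lin28a, an RNA-binding protein of pluripotent cells, was positive on all arrays at 0.26 ± 0.11. The medians of the 17 genes on replicates 1 to 4 were -0.08, -0.04, 0.25 and -0.00. The part of any of these cell types in the keratin ratios was not tested.

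**Figure D3:**
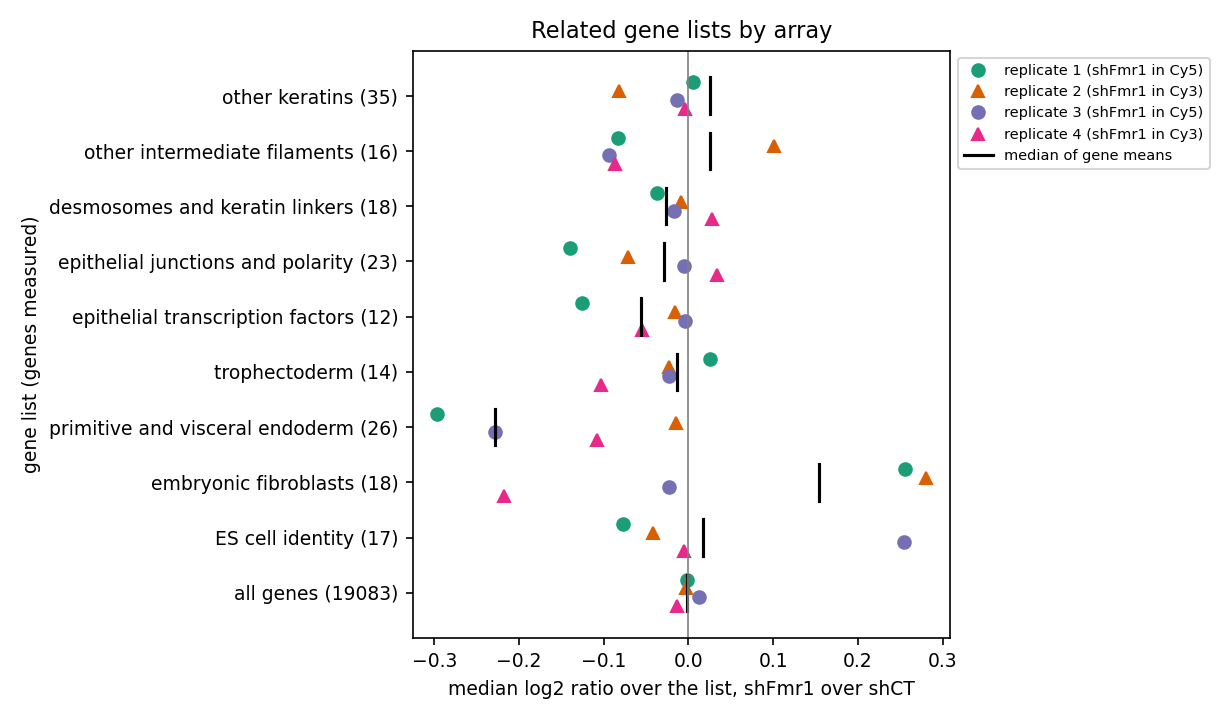
Median log2 ratio of shFmr1 over shCT (horizontal axis) of each gene list on each array, circles for shFmr1 in Cy5 and triangles for shFmr1 in Cy3, with the median of the gene means as a black line and the number of genes measured in brackets. By the median of gene means, the endoderm list lies at -0.23, the fibroblast list at 0.15 and the other lists close to 0. The fibroblast list has a wide spread between arrays, and the ES cell identity list reaches 0.25 on replicate 3.

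The genes with ratios most like those of the keratins were found by the Euclidean distance over the log2 ratios of the 4 arrays, with no test. The points share their arrays and RNA samples, and only genes with strongly negative means can be near. Krt8 and Krt19 were closer to each other, at a distance of 0.587, than either was to any other gene. Krt18 was nearest to S100a6, which encodes a small calcium-binding protein, at 0.150. S100a6 has 1 feature and read -0.28, -0.35, -1.24 and -1.51, within 0.1 of Krt18 on each array. It was also the gene nearest to Krt8 outside the keratins, at 0.790, and to the mean of Krt8, Krt18 and Krt19, at 0.592. The next nearest to Krt18 were Serpinh1, a collagen chaperone (-0.55 ± 0.59), Clu, the extracellular chaperone clusterin (-0.52 ± 0.44), S100a10, the partner of annexin A2 (-0.53 ± 0.29), and Dok2, an adaptor protein (-0.63 ± 0.57).

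Krt19 lay nearest, outside the keratins, to Fmr1 itself, at 0.667. Fmr1 and Krt19 shared the order of arrays to the extent that replicates 2 and 4 were low and replicate 1 high. S100a6, Chst1, a carbohydrate sulfotransferase (-0.57 ± 0.41), and the interferon-inducible GTPase genes Gbp2b (-0.59 ± 0.22) and Gbp2 (-0.60 ± 0.59) followed. For Krt8, after S100a6, they were Fmr1, Sema4c, a semaphorin (-0.89 ± 0.53), Pate6 (-0.53 ± 0.71) and Poteg (-0.57 ± 0.92). Poteg read 0.09, -0.16, -0.28 and -1.94, so its mean rests on replicate 4. Pate6 and Gbp2 were positive on replicate 1, at 0.44 and 0.16, and Serpinh1 on replicate 2, at 0.15. Pate6 was already at a distance of 1.31 from Krt8. Because the mean of Krt8 was among the lowest of all genes, few genes could lie near it, and nothing is read from this distance.

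**Figure D4:**
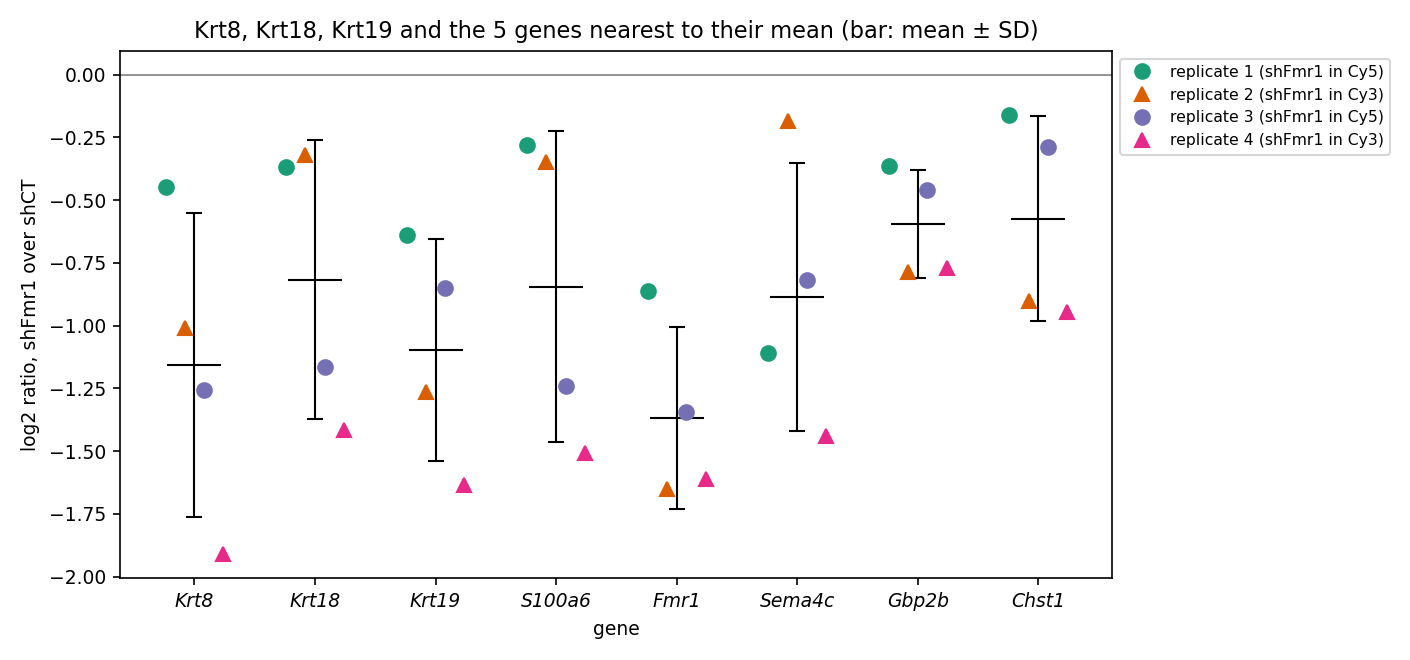
Log2 ratios of shFmr1 over shCT (vertical axis) of Krt8, Krt18, Krt19 and the 5 genes nearest to their mean on each array, circles for shFmr1 in Cy5 and triangles for shFmr1 in Cy3, with mean and SD over 4 arrays as bars. All 8 genes lie below 0 on each array, and S100a6 has nearly the values of Krt18.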

How the data were processed

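The authors deposited 1 log ratio for each of 45214 features on each array, and these ratios were read here as log2. Their scale, direction, normalization and software were not given in the sources used here, so the base and the sign are readings of the values. Array medians were 0.01, -0.01, 0.02 and -0.02, so the values had been centred. The largest absolute value, 5.84, exceeds 4.82, the log10 of a 16-bit scanner's range, which makes log10 unlikely. Natural logs remain possible.

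Symbols came from a 2016 platform annotation. Of the features, 33649 had 1 symbol, 56 several and 11509 none, and the last 2 kinds were left out. Checking gene identifiers against RefSeq updated 0 symbols. Features were averaged per gene. Krt8 and Krt7 have 2 features each, and Krt18, Krt19 and Krt20 have 1.

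All genes were fitted with limma 3.58.1 (R 4.3.3), the shFmr1 ratio and the dye orientation as coefficients, and p-values were adjusted by Benjamini-Hochberg over 19083 genes (threshold 0.05). The script was tested on simulated data. The number of arrays limits the precision, and all were on 1 slide per their titles. The keratins and the gene lists were chosen with earlier results of these data known. Named genes are the 5 keratins, Fmr1, genes among the 3 lowest and 3 highest means of each list, and the 5 nearest genes by Euclidean distance. Krt13, Krt6a, Krt76, Krt79, Eif4b, Krt15 and Krt9 fall outside this rule and were named after their values were seen. The means of listed genes without their most distant array were also added after seeing the data. Alternatives were no dye term, other normalizations, other feature summaries, single features, a robust variance model, natural logs, and leaving out each array.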

Additional observations from a re-analysis of the deposited data

Results flagged for a closer look

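On 4 of 71 values checked (genes and list medians), 1 array lay far from the other arrays by Dixon's criterion, where chance gives about 1 in 20, or 3.55. That rate holds for unselected values. Most of these genes were picked for the lowest or highest means of a list, so nothing is read from the comparison. The 5 simple epithelial keratins and Fmr1 were not among them. Krt86, a hair keratin, read 2.76 on replicate 4 and between -0.22 and 0.07 on the others. Tpbpa, a spongiotrophoblast marker, read -1.89 on replicate 1 and between 0.21 and 0.30 on the others. Dppa5a, a gene of ES cells, read 0.66 on replicate 3 and between -0.02 and 0.04 on the others. The list of other intermediate filaments had a median of 0.10 on replicate 2 and between -0.09 and -0.08 on the others.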

How the results depend on the processing

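The means of Krt8, Krt18 and Krt19 stayed negative under each alternative run. Leaving out 1 array gave -1.39 to -0.90 for Krt8, -0.98 to -0.62 for Krt18, -1.25 to -0.92 for Krt19, -0.33 to -0.08 for Krt7 and -0.04 to 0.11 for Krt20. Read as natural logs, the mean of Krt19 would be -1.58, with Krt8 at -1.67 and Krt18 at -1.18. Since the ratios chose the keratins, nothing is read from a keratin passing the threshold in any fit below. The count of genes past the threshold for shFmr1 was 2 with quantile normalization, Krt19 being 1 of them. With the dye term kept it was 25, 87, 10 and 0 when replicate 1, 2, 3 or 4 was left out, and Krt19 passed in the fit lacking replicate 2. With no dye term it was 0 whichever array was left out. For dye orientation the counts were 22, 77, 12 and 7 in the same order. These last fits have few degrees of freedom, since 1 array then stands alone in its orientation. Each array already holds both RNAs and there is 1 group of ratios, so the fit of the ratios is itself paired by array. Signal over background could not be assessed without intensities.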
